A study of Mus musculus with 9 samples.

Results

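The lungs of SV129 mice were compared after 4 weeks of hypobaric hypoxia, at a chamber pressure of 50 kPa, and after 4 weeks at 85 kPa, the ambient pressure at the altitude of the laboratory, which is called normoxia here. The comparison held 3 of the 9 arrays in the series, namely the hypoxic SV129 arrays that carry the numbers 2 and 5 in their titles and the normoxic SV129 array, numbered 1. The remaining 6 arrays came from BL6 and FVB/N mice, also with 2 hypoxic arrays (50 kPa) and 1 normoxic array (85 kPa) per strain, and 12 further arrays mentioned by the submitters were not analysed here. Each array measured total RNA from the whole right lung, an organ of many cell types, as a homogenate. In such bulk tissue, fewer cells of a type and less RNA per cell cannot be told apart. Mice of both groups were of the same strain, and no transgene or drug is named for any group. The labels give no age or sex and leave unstated whether each array represents its own animal, so a p-value measures only the spread between these arrays, which may be technical.

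The array carries 45101 probe sets, short groups of probes that each read 1 transcript region. After 64 control probe sets and the dimmest 40% of the rest were left out, 27022 probe sets remained, and 12890 genes were read through their brightest probe set. A signal is the deposited intensity in arbitrary units, and a difference is a hypoxic array minus the normoxic array on the scale of log2(signal + 16), which understates the difference of dim genes. Genes were described when their signals on both hypoxic arrays were above, or on both below, the normoxic signal. This held for 8089 of 12890 genes, of which 3991 were higher on both (31.0%) and 4098 lower on both (31.8%). Centring each array on its median moved these counts to 5171 higher (40.1%) and 3076 lower (23.9%). For the other 4801 genes the hypoxic arrays lay on opposite sides of, or level with, the normoxic one. With 1 normoxic array shared by both differences, its own error enters every value below. The shares over all genes are the background of each list count below.

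Chronic hypoxia constricts and remodels the small pulmonary arteries: smooth muscle extends into thin-walled vessels, elastin and collagens are laid down in the wall, and the pressure load on the right heart grows. Cells sense low oxygen through hypoxia-inducible factors (HIF), which drive genes of glycolysis, red cell production and vessel growth. The lung also has a circadian clock, and many of its genes follow glucocorticoid hormone, whose level in blood changes with the hour and with stress.

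The tissue label was checked against marker genes. Sftpc, the surfactant protein of alveolar type 2 cells, had signals of 19124 on the normoxic array, 35622 on hypoxic array 2 and 34399 on hypoxic array 5, and Ager, a receptor of the alveolar type 1 cell surface, 20361, 34890.0 and 35759 in the same order, which is kept below. Of 5 transcripts of kidney tubules (Umod, Miox, Kap, Slc12a1 and Slc34a1), the highest signal on any SV129 array was 145, whereas they ranged from 5285 to 27527 on hypoxic BL6 array 2 and the normoxic FVB/N array. No SV129 difference was taken from an array with kidney transcripts, although both arrays entered the brightness filter and the pooled spread. Control features differed with the condition. The 5′ probe set of 18S ribosomal RNA read 12239 on the normoxic SV129 array against 143 and 73.9 on the hypoxic ones, and 1682 to 7666 on the other normoxic arrays. The added bacterial transcript bioC read 307 against 1438 and 1595 at its 3′ end, whereas the added bioD read 10667 against 7116 and 7892, in the opposite order. All normoxic arrays in the series carry the number 1 and the hypoxic arrays other numbers, so that condition and preparation cannot be told apart. The highest signal was 24865 on the normoxic array and 41869.6 and 41714 on the hypoxic ones, and the median difference ran from −0.10 in the dimmest 10% of probe sets to 0.12 in the brightest 10%. Quantile normalization, which gives every array the same distribution, reduced these to −0.03 and 0.01, and its values are given beside the gene groups whose counts it moved most.

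No probe set passed in limma (0 of 27022, 0%, at a Benjamini-Hochberg adjusted p under 0.05), and 2061 had an unadjusted p under 0.05. The smallest adjusted p was 0.303. The fit pooled the spread of the 3 pairs of hypoxic arrays, with 3 residual degrees of freedom, and so assumed that the lone normoxic array varied like those pairs. In simulated data of this size the test recovered 0 of 100 probe sets changed by 1 log2 unit and 2 of 100 changed by 2 units, with no false call. The values below are therefore descriptions of these 3 arrays. Both hypoxic arrays lay at least 1 log2 unit above the normoxic array for 132 probe sets (0.488%) and at least 1 unit below it for 288 (1.07%). At the level of genes these were 33 (0.256%) and 93 (0.721%). The split leaned less to lower values after median centring, with 182 probe sets higher and 211 lower, and after quantile normalization, with 161 and 255. Nearest to the limit of 1 unit, Fbxo5 lay just inside at 1.008 and Col1a1 just outside at 0.996 among genes that were higher. On the lower side, Grm4 lay inside at −1.002 and Nxt2 outside at −0.997.

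**Figure D1:**
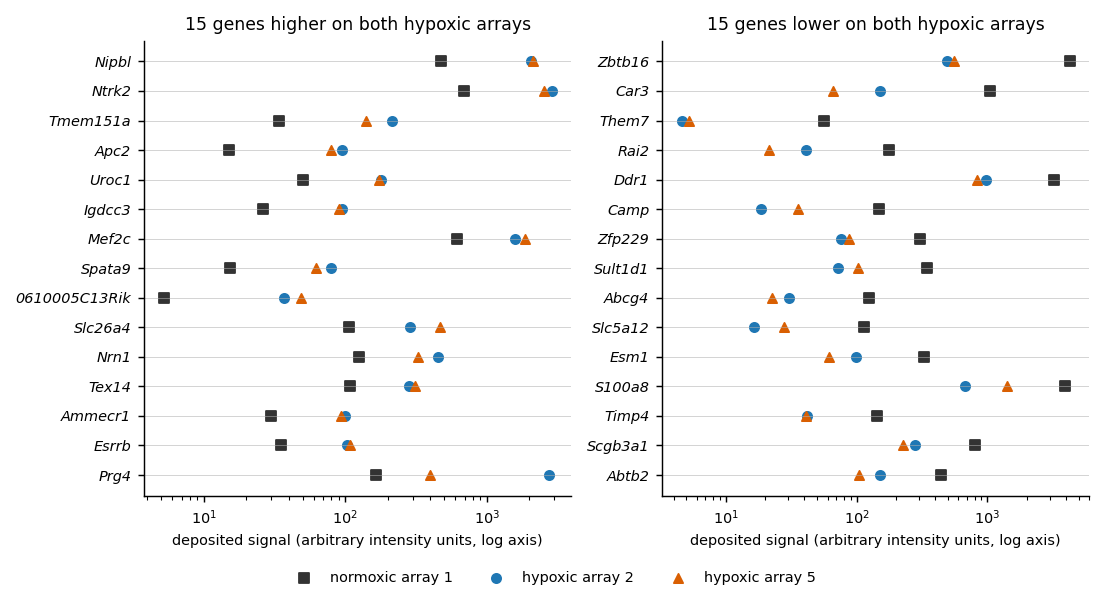
Deposited signal (horizontal log axis, arbitrary intensity units) of the 15 genes with the largest positive and the 15 with the largest negative smaller difference, one point per SV129 array. Squares are the normoxic array, circles hypoxic array 2 and triangles hypoxic array 5; for every gene both hypoxic points lie on the same side of the square, and for Prg4 they lie far from each other at 2741 and 399.

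Ntrk2, which encodes the receptor tyrosine kinase TrkB for brain-derived neurotrophic factor, had signals of 696 on the normoxic array, 2893 on hypoxic array 2 and 2545 on hypoxic array 5. Both hypoxic arrays were far above the normoxic one, by 2.03 and 1.85, and the fitted difference was 1.94 ± 0.40 (standard error; limma adjusted p = 0.349). A second Ntrk2 probe set read 842, 2802 and 4039.9, also high on both hypoxic arrays. Among the 6113 genes with 2 or more probe sets, Ntrk2 had the largest median of the smaller difference, 1.78. In BL6 the 2 hypoxic arrays differed from their own normoxic array by 2.32 and 2.09 and in FVB/N by 2.33 and 3.41, all upward as in SV129.

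Mef2c, a transcription factor of muscle and endothelial cells, read 617, 1585 and 1856. The hypoxic arrays were close to each other and apart from the normoxic one, with a fitted difference of 1.45 ± 0.22 (standard error; limma adjusted p = 0.303). Of its 4 other probe sets, 3 lay higher on both hypoxic arrays and 1 lay lower, at 436, 399.6 and 298. Rgs4, which shortens signalling through G proteins in smooth muscle and neurons, read 969, 2102 and 2237, and its other 2 probe sets also lay higher on both, by at least 0.40. Gucy1a1, the alpha subunit of the nitric oxide receptor guanylate cyclase, read 5437, 7066 and 8541, and all 3 of its probe sets pointed upward. Cspg4, the NG2 proteoglycan of pericytes, read 302, 493 and 501, and Lrat, which esterifies retinol for storage, 3091, 4555 and 4056. The second Lrat probe set separated the groups further, at 171, 1016 and 673. Itgb6, an epithelial integrin subunit that activates TGF-beta, was higher on both but unequally, at 312, 541 and 1844. The rest of the genes ranked highest over all their probe sets were Eln, which is described with the matrix, and Cdk19, Syne1 and Arap2, whose median smaller differences lay between 0.78 and 0.95.

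Ranked by the smaller of both differences, the highest gene was Nipbl, the loader of the cohesin ring onto chromosomes, at 473, 2063 and 2134 and a fitted difference of 2.11 ± 0.22 (standard error; limma adjusted p = 0.303). None of its 4 other probe sets lay higher on both hypoxic arrays. The brightest of those read 2164, 1872 and 1564, in the opposite order, so the probe sets of this gene disagreed. Of the 15 highest genes, 8 had a normoxic signal below 100. They include Tmem151a at 34.2, 215 and 141, the APC homologue Apc2 at 15.03, 94.4 and 79.4 and the nuclear receptor gene Esrrb at 35.2, 103 and 108. These are dim readings, each from 1 probe set. The same holds for the urocanase gene Uroc1 at 50.6, 178 and 172, Igdcc3 at 26.1, 95.3 and 90.6, Spata9 at 15.4, 79.6 and 62.7, Ammecr1 at 29.8, 99.6 and 93.3 and the transcript 0610005C13Rik at 5.205, 36.8 and 48.4. Normoxic FVB/N, at 1841, and hypoxic BL6 array 2, at 872, the arrays with kidney transcripts, read 0610005C13Rik far higher, and its mean over the other 7 arrays is below the level of the brightness filter. Tex14, a gene of germ cell bridges, read 108, 284 and 310.4. Among the brighter ones, Nrn1, a neurite growth factor, read 126, 454 and 328, and Slc26a4, the anion exchanger pendrin, 106, 286 and 472. Prg4, the lubricating glycoprotein lubricin that mesothelium and joints secrete, read 165, 2741 and 399. It was far higher on array 2 than on array 5, and its differences were 3.93 and 1.19.

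Extracellular matrix genes lay mostly higher on both hypoxic arrays. Of 36 listed matrix genes above the filter, 27 were higher on both hypoxic arrays and 1 was lower, beside 31.0% and 31.8% of all genes, and none passed the limma test. The median difference of the list was 0.45 on array 2 and 0.39 on array 5, against 0.0022 and −0.01 over all genes. After quantile normalization 27 were higher and 3 lower, with a median of 0.27. The list had been picked with results of these data known, and most of its members are bright, so the shift of bright probe sets given above applies to it. That shift is a median, and single bright genes moved unequally. Quantile normalization took the mean difference of the mitochondrially encoded ND5, outside this list, from 0.90 to 0.48, and that of Eln from 1.18 to 1.19.

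Eln, the elastin of arterial walls, had signals of 2424 on the normoxic array, 5275 on hypoxic array 2 and 5795 on hypoxic array 5. Both hypoxic arrays were more than 1 log2 unit higher (1.12 and 1.25), with a fitted difference of 1.18 ± 0.26 (standard error; limma adjusted p = 0.355), and a second probe set read 473, 1536 and 1013. Col1a1, a chain of type I collagen, read 2575, 7727 and 5151, and its partner chain Col1a2 9814, 16016 and 11540.4. Array 2 was the higher of the hypoxic arrays for both chains. Basement membrane genes were higher on both as well: Col4a1 read 11278, 18488 and 22359, Col4a2 7278, 12077 and 11589 and Col15a1, found beneath endothelium and muscle, 256, 458 and 567. Elastic fibre genes included Mfap4 at 7326, 18801 and 11938, the crosslinking enzyme gene Loxl1 at 4188, 7319.7 and 6425 and Fbln5 at 4097, 6258 and 5607. Fibronectin, Fn1, a scaffold for newly laid matrix, read 7223, 13449.6 and 12139.8. The exception was Col14a1, a collagen on the surface of fibrils, at 1034, 835 and 819. The hypoxic arrays disagreed most for Fbln1, at 1522, 2115 and 703, where array 5 lay below and array 2 above the normoxic array. For Lox, another crosslinking enzyme, the opposite held, with 3377, 3159 and 5593.

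**Figure D2:**
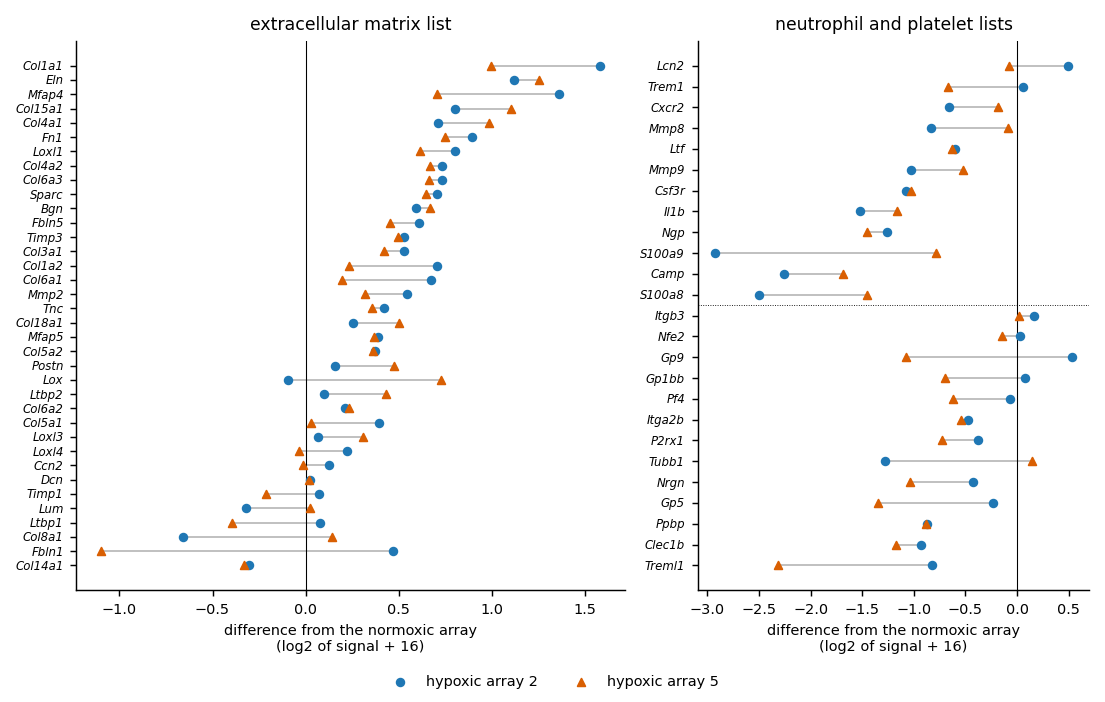
Difference from the normoxic SV129 array (horizontal axis, log2 of signal + 16) of each gene in the matrix list (left) and in the neutrophil and platelet lists (right, above and below the dotted line), with circles for hypoxic array 2 and triangles for hypoxic array 5. Most matrix genes have both points right of 0, led by Col1a1 and Eln, and most neutrophil genes both points left of 0, led by S100a8 and Camp.

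Smooth muscle and fibroblast markers leaned the same way with smaller values. Of 17 smooth muscle genes, 9 were higher on both and 1 lower, beside 31.0% and 31.8% of all genes. The medians were 0.11 on array 2 and 0.39 on array 5. Quantile normalization gave 7 higher and 2 lower, with a median of 0.20. Acta2, the actin of contractile muscle, read 9865, 11745 and 14238, Tagln 5709.6, 7570.4 and 9446 and Myh11, the smooth muscle myosin, 1558, 1654 and 2496. Array 5 was the higher hypoxic array for each of these. Cnn1, the muscle protein calponin, had no common direction, at 1253, 1329.7 and 969. Of 17 fibroblast genes, 12 were higher on both and 2 were lower, with medians of 0.34 on array 2 and 0.20 on array 5. After quantile normalization 10 higher and 4 lower were counted, with a median of 0.15. Mfap4 belongs to this list and to the matrix list. The receptor gene Pdgfra read 6784, 7749.9 and 10114 and Limch1 13407, 18686 and 24854. Nox4, an NADPH oxidase of smooth muscle and fibroblasts that makes hydrogen peroxide, read 2949, 3790.1 and 4314.

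Genes of vascular signalling were split. Of 32 genes of vascular tone, 12 were higher on both and 8 lower, with 11 higher and 11 lower after quantile normalization. Npr3, the clearance receptor for natriuretic peptides, had the largest difference, at 2259.8, 888 and 453, with differences of −1.33 and −2.28. The endothelin gene Edn1 read 3069, 2017 and 2106 and its receptor Ednrb 4993, 3294 and 3031, both lower on the hypoxic arrays. Calcrl, the receptor for adrenomedullin and calcitonin gene-related peptide, read 10376, 7051 and 5931, also lower. The angiotensin-converting enzyme Ace was higher, at 4653, 8587 and 7979.8, as was the nitric oxide synthase Nos3, at 389.8, 526 and 467. The serotonin transporter Slc6a4 had no common direction, with 138, 147 and 94.7.

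Of 35 genes of vessel growth and endothelial signalling, 14 were higher on both and 8 lower. Vegfd, a ligand of lymphatic and endothelial receptors, read 2095, 4554 and 3925, and Sulf2, which trims sulfate from heparan chains, 1147, 2356 and 4443. Both were higher on each hypoxic array. The genes that were lower included Esm1, the endothelial proteoglycan endocan, at 326, 99.8 and 61.4, and Tspan12, a partner of the receptor encoded by Fzd4, at 1347, 558 and 341. Fzd4 itself read 1265, 1740.5 and 6104, with array 5 far above the rest. Ddr1, a collagen receptor kinase, had a large difference in its brightest probe set, 3211, 968 and 826, with a fitted difference of −1.83 ± 0.23 (standard error; limma adjusted p = 0.303). That probe set was also lower in the other strains, with differences of −2.62 and −2.59 in BL6 and −1.48 and −1.29 in FVB/N. Its 6 other probe sets were mixed, with 3 lower on both hypoxic arrays (smaller differences between −0.48 and −0.30) and the rest without a common direction. Vegfa, a HIF target, read 4127, 4495 and 3891, so its values straddled the normoxic array.

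Of 27 genes of the bone morphogenetic protein (BMP) and TGF-beta pathways, which govern vessel wall growth, 8 were higher on both and 12 lower. The ligands Tgfb1, at 909, 2107 and 1104, and Tgfb2, at 518, 823 and 720.04, were higher on each hypoxic array. Fst, the activin antagonist follistatin, was lower, at 328, 114 and 149. Id2, a transcriptional target of BMP signals, read 2660.2, 1541 and 1297, and the inhibitor Smad6 3134, 2026 and 2609. The receptor Bmpr2 was near level, at 11354, 11399.9 and 11743, with a mean difference of −0.20 after quantile normalization.

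Genes driven by HIF and genes of glycolysis showed no lean. Of 27 genes, 8 were higher on both, 8 were lower, and the medians were 0.02 on array 2 and −0.03 on array 5. Slc2a1, the glucose transporter, read 1199.8, 829 and 980.4, and Hk2, a hexokinase, 811, 587 and 695, both lower on each hypoxic array. Pkm, pyruvate kinase, was higher, at 2738, 4024 and 3346, as was Egln1, the oxygen-sensing hydroxylase, at 2514, 2944 and 3198. Adm, which encodes the vasodilator adrenomedullin, parted the hypoxic arrays, at 397, 152 and 1234. A second Adm probe set read 439.9, 316 and 485, with the same order of arrays but a smaller spread.

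**Figure D3:**
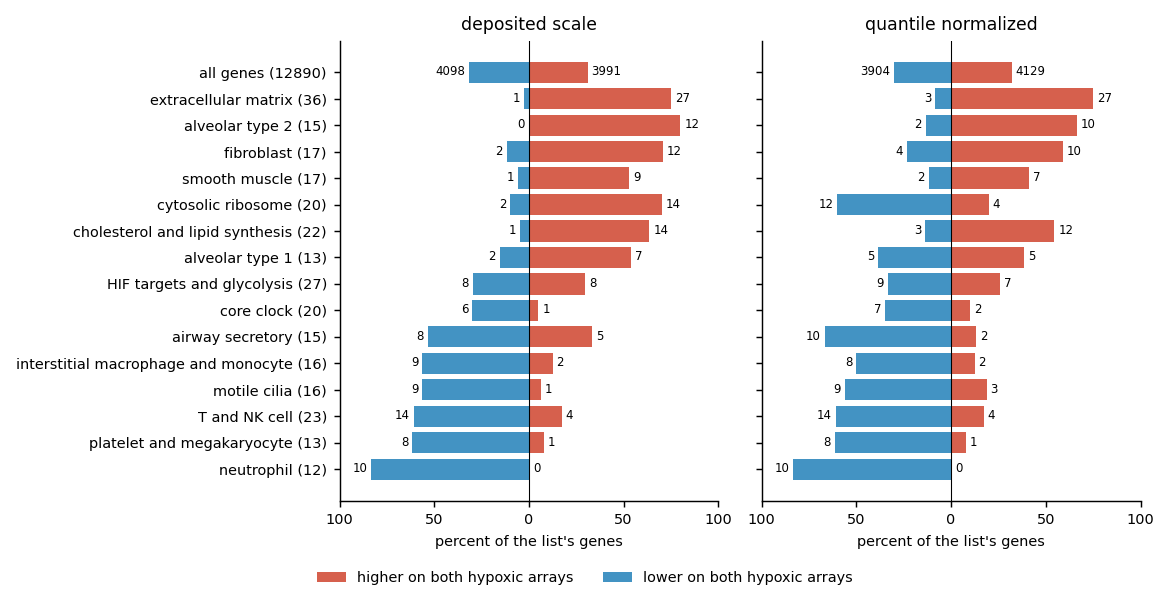
Percent of each list's genes (list size in brackets) that lay higher (red, to the right) or lower (blue, to the left) on both hypoxic SV129 arrays, with gene counts at the bar ends, on the deposited scale (left) and after quantile normalization (right). The matrix list has 27 higher genes in both panels, beside 1 lower gene on the left and 3 on the right, and the neutrophil list has 10 lower genes in both, while the ribosome list passes from 14 higher and 2 lower to 4 higher and 12 lower.

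Markers of the alveolar epithelium were among the brightest signals, and their values depended on the scale. Of 15 alveolar type 2 genes, 12 were higher on both hypoxic arrays and 0 lower, with medians of 0.45 on array 2 and 0.55 on array 5, but after quantile normalization 10 were higher and 2 lower, with a median of 0.08. Sftpd, a surfactant collectin, read 13767, 24137 and 23046. Sftpb, which spreads surfactant lipid, went both ways, at 15409, 25733 and 12060.5. Of 13 alveolar type 1 genes, 7 were higher and 2 lower. After quantile normalization 5 were higher and 5 lower, and the median turned to −0.12. Cldn18, a tight junction protein, read 9524, 11383 and 3353, low on array 5 alone. The 20 cytosolic ribosome genes flipped with the scale, from 14 higher and 2 lower to 4 higher and 12 lower after quantile normalization, where 32.0% of all genes were higher and 30.3% lower. Of 22 genes of cholesterol and lipid synthesis, 14 were higher and 1 lower, with 12 and 3 after quantile normalization. Msmo1, a sterol oxidase, read 1256, 1745 and 2501, and Hmgcs1, an early enzyme of sterol synthesis, 6219, 7181 and 11161.

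Of 15 airway secretory genes, 5 were higher on both hypoxic arrays and 8 lower, with 2 higher and 10 lower after quantile normalization. Scgb3a1, a secretoglobin of the upper airways, read 798, 282 and 227, and the antimicrobial gene Bpifb1 158, 52.8 and 72.01. The mucin Muc5b read 205, 100.02 and 32.2. All 3 were lower on both hypoxic arrays, whereas the club cell gene Scgb1a1, at 23116, 41869.6 and 41714, and Cyp2f2, at 17972, 29609 and 27249, were higher on both on the deposited scale. Scgb1a1 gave the highest signal of all probe sets on both hypoxic arrays, above the highest signal on the normoxic array, and after quantile normalization the mean difference was 0.11 for Scgb1a1 and 0.07 for Cyp2f2. Of 16 genes of motile cilia, 9 were lower and 1 higher. Foxj1, the regulator of ciliated cells, read 537, 424 and 329.

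Neutrophil genes lay mostly lower on both hypoxic arrays. Of 12 genes above the filter, 10 were lower on both hypoxic arrays and none was higher, beside 31.8% and 31.0% of all genes. At least 1 log2 unit lower on both were 5, beside 0.721% of all genes. None passed the limma test, and the list had been picked with results of these data known. The medians were −1.05 on array 2 and −0.73 on array 5, and −0.89 after quantile normalization. S100a8, a calcium-binding protein that fills neutrophil cytoplasm, had signals of 3919.7 on the normoxic array, 678 on hypoxic array 2 and 1419 on hypoxic array 5. Its partner S100a9 read 2932, 373 and 1693, with array 2 far below array 5. Camp, the antimicrobial cathelicidin, read 149, 18.5 and 35.4, and Ngp, a granule protein, 325, 126 and 108. Il1b, the cytokine interleukin-1 beta, read 960.2, 325 and 419 and Csf3r, the receptor for granulocyte colony-stimulating factor, 791, 368 and 379. Lcn2, which epithelium also makes, was the member without this order, at 1479, 2091 and 1399, together with Trem1, at 111, 116 and 64.3. The summed signal of the list was 11402, 4477 and 6051.

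More genes were lower than higher on both hypoxic arrays in the lists of T and NK cells, platelets, and interstitial macrophages and monocytes. In this order, 60.9%, 61.5% and 56.2% were lower on both, beside 31.8% of all genes. The shares that were higher on both were 17.4%, 7.69% and 12.5%, beside 31.0% of all genes. The lists had been picked with results of these data known. Of 23 T and NK cell genes, 14 were lower on both and 4 higher, with medians of −0.40 on array 2 and −0.42 on array 5. The chemokine Ccl5 read 741, 381 and 298, Cd3g, a chain of the T cell receptor complex, 453, 258 and 118, and the NK receptor Ncr1 185, 87.5 and 71.8. Cd3e, another chain of the same complex, went the other way, at 149.7, 226 and 246. Of 13 platelet genes, 8 were lower and 1 higher; Ppbp, a platelet chemokine, read 283, 148 and 147, and Clec1b, the platelet receptor for podoplanin, 279, 139 and 115. The summed signal was 7544, 5505 and 5343 for the T and NK list and 2971, 2298 and 1819 for the platelet list. No member of these lists read 0 on any array. Of 16 genes of interstitial macrophages and monocytes, 9 were lower and 2 higher. Lyve1, a hyaluronan receptor of lymphatic endothelium and resident macrophages, read 3957, 1487 and 1067, and its second probe set 2126, 1133 and 722. Ccr2, the receptor of recruited monocytes, read 590.1, 270.4 and 241. Of 15 alveolar macrophage genes, 7 were higher on both and 3 lower. The part of a different blood content in these values was not tested; of 9 erythroid genes, 4 were higher and 3 lower, and of 15 B and plasma cell genes 4 and 6.

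Zbtb16, the zinc finger transcription factor PLZF that glucocorticoids induce, was the lowest gene by the smaller of both differences, with signals of 4272 on the normoxic array, 489 on hypoxic array 2 and 554 on hypoxic array 5. Both hypoxic arrays were near each other and far below the normoxic one, with differences of −3.09 and −2.91. The fitted difference was −3.00 ± 0.79 (standard error; limma adjusted p = 0.426), and 2 more probe sets read 1181, 245 and 164, and 243, 76.4 and 15.1. Fkbp5, an immunophilin that glucocorticoids also induce, read 839.7, 350.3 and 259, and its second probe set 299, 154 and 123. Of all 20 genes of the glucocorticoid list, 6 were higher on both and 7 lower, with 3 higher and 9 lower after quantile normalization. The phosphatase Dusp1, at 15360.0, 24683 and 21163, and the receptor inhibitor Errfi1, at 10128, 14072 and 21223, were higher. Quantile normalization lowered the mean difference of Dusp1 from 0.57 to 0.11. Tsc22d3, the leucine zipper GILZ, was lower on both but unequally, at 8189, 6253 and 2396.

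The inducible heat shock gene pair Hspa1a and Hspa1b, near-identical copies whose probe sets may read each other, were lower. Hspa1a read 706, 279 and 266 and Hspa1b 1216, 544 and 472, and the other 2 Hspa1b probe sets had smaller differences of −1.35 and −1.99. Of 19 heat shock and chaperone genes, 5 were lower and 6 higher, against 7 and 4 after quantile normalization. Among them, Hsp90aa1 was higher, at 4981, 8141 and 8767. Car3, a carbonic anhydrase of fat and muscle, read 1055, 151 and 66.4, with a second probe set at 149, 28.5 and 27.98. The fat hormone gene Adipoq read 113, 41.5 and 33.98, also lower on both. Fabp4, shared by fat and endothelium, lay closer, at 1082, 977 and 704. Of the 12 adipocyte genes, 2 were higher on both and 6 lower, beside 31.0% and 31.8% of all genes. Their summed signal was 12500.0, 11869 and 11294, and the part of attached fat in the Car3 value was not tested. Klhl2, an adaptor for ubiquitin ligases, read 1324, 506 and 312, lower on both over each of its 2 probe sets. Minpp1, a phosphatase of inositol phosphates, read 1475, 849.8 and 337, lowest on array 5. Abtb2 lay lower in its brightest probe set, at 441, 151 and 105, but its second probe set went the opposite way, at 80.8, 149 and 329.6. Timp4, an inhibitor of matrix metalloproteases, read 143, 41.98 and 41.2, and the sulfotransferase gene Sult1d1 346, 72.5 and 103. The rest of the 15 lowest genes had hypoxic signals below 100 on both arrays: Them7 (56.6, 4.603 and 5.21), Rai2 (177, 40.96 and 21.6), the zinc finger gene Zfp229 (305, 75.5 and 87.8), the sterol transporter gene Abcg4 (124, 30.4 and 22.7) and Slc5a12, a lactate transporter gene (115, 16.5 and 27.8). The arrays with kidney transcripts, hypoxic BL6 array 2 and normoxic FVB/N, read 966 and 6035 for Them7, 459.8 and 2743 for Slc5a12, and 2315 and 6246 for Sult1d1. The means of Them7 and Slc5a12 over the other 7 arrays are below the level of the brightness filter, as are those of 214 of the 12890 genes in all.

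The hypoxic SV129 arrays differed from each other in more probe sets than those of the other strains, as a count with no test. They were at least 1 log2 unit apart in 2427 of 27022 probe sets (8.98%), against 1015 between the hypoxic BL6 arrays and 1028 between the hypoxic FVB/N arrays. The standard deviation of the difference was 0.61 in SV129, 0.59 in BL6, where 1 array carries kidney transcripts, and 0.44 in FVB/N. Array 2 lay that far from the normoxic array in 1112 probe sets and array 5 in 2633. Array 5 read at least 2 log2 units below both other SV129 arrays in 91 probe sets, whereas array 2 did so in 9 and the normoxic array in 4. The ratio of the 3′ to the 5′ probe set, a measure of RNA quality, was 1.32 on the normoxic array, 1.399 on array 2 and 1.55 on array 5 for β-actin, and 0.945, 1.04 and 1.19 for Gapdh. The part of this order, or of a local fault of array 5, in the values of array 5, clock genes included, was not tested. Of these 91, hypoxic FVB/N array 2 was the lowest of the 6 arrays from other strains in 64. How often that array is the lowest over all probe sets was not counted, so the 64 has no background beside it. The other 114 probe sets of the genes concerned lay at least 1 unit below both SV129 arrays on array 5 in 20 instances. The genes at this end included Pfn1, the actin-binding profilin, at 8720.2, 11072 and 679, Otub1, a deubiquitinase, at 684, 809 and 32.6, and A4galt, a glycolipid galactosyltransferase, at 910.4, 681 and 4.05. For Sdf2l1, Hnrnpl, Arf5, Rara, Pi4kb and Stk25, array 5 minus array 2 lay between −3.87 and −3.43. The other Otub1 probe set read 434, 521 and 164.

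Clock genes parted the hypoxic arrays. The transcription factors encoded by Arntl (BMAL1) and Clock bind the E-box motif and activate the Per, Cry, Nr1d1 and Dbp genes, whose products include repressors of that activation, so Arntl runs in opposite phase to its targets. DBP, TEF and HLF bind the D-box motif. Of 20 clock genes, 1 was higher on both hypoxic arrays, 6 were lower and 13 lay on opposite sides. The medians were 0.10 on array 2 and −0.81 on array 5. Array 2 read above the normoxic array in 11 of 20 and array 5 in 4, beside 6479 (50.3%) and 6304 (48.9%) of all 12890 genes. The labels do not give the hour at which the lungs were taken.

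Of the 20 clock genes, 17 matched the RefSeq table of promoter windows (GRCm38.p6), and the 250 bases before each start were searched on both strands. The motifs were the E-box CACGTG, which reads the same on both strands, the D-box TTATGTAA and the ROR receptor half-site AGGTCA. The E-box occurs in 6.02% of 32851 such windows, the D-box in 0.819% and the ROR half-site in 14%. The E-box was found for 4 of the 17 genes, namely Ciart, Cry1, Per1 and Tef, and the D-box for Per3 alone. The ROR half-site was also found for 4, namely Clock, Per1, Nfil3 and Nr1d2. Some of the 17 genes have several windows and were counted with a match in any of them. The shares of windows are therefore no direct background for these counts of genes. A pair of windows is shown because they hold more than 1 copy, with the motif copies in capitals: 3 E-boxes before Ciart (chr3:95882229-95882478, minus strand), as in 0.0609% of windows with 3 or more, and 2 D-boxes before Per3 (chr4:151044666-151044915, minus strand), as in 0.0183% with 2 or more. A match is a description of the letters and not a measured binding site.
Ciart: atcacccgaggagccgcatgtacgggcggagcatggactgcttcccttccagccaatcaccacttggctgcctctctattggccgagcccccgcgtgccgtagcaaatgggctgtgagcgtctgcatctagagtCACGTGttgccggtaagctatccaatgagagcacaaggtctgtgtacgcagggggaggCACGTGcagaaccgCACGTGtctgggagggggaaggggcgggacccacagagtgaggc
Per3: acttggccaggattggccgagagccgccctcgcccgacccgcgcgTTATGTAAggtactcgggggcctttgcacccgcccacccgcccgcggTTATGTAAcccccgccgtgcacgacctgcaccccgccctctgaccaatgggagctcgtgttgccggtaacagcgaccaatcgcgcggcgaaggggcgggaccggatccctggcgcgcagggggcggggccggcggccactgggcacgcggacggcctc

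Ciart, a repressor of the clock that carries the E-boxes above, had signals of 300.4 on the normoxic array, 512 on hypoxic array 2 and 124 on hypoxic array 5. Array 2 was the highest and array 5 the lowest. Per3, with the D-boxes, read 352, 512 and 137, in the same order. The D-box factors themselves had this order too: Dbp read 4428, 6627 and 583, Tef 3854, 5284 and 1664 and Hlf 650.2, 805 and 301. A second Dbp probe set read 2609.5, 4628 and 149.8, lower still on array 5. Nr1d1, which encodes the repressor REV-ERB alpha, read 1516, 3013 and 418 and Nr1d2 6224, 6434 and 3642. Per1 read 1758, 2608 and 611, and Per2 908, 755 and 132, the latter lower on both hypoxic arrays but far more so on array 5. The repressor gene Cry2 read 1093, 1212 and 771 and Bhlhe40, another repressor, 2001, 2563 and 1231, with array 2 highest and array 5 lowest for both.

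Arntl, the activator, had the reverse order, 348, 139 and 832, with array 5 highest and array 2 lowest. Its second probe set read 71.3, 61.1 and 147. Clock, its partner, read 1078, 755 and 1644, in the same reversed order. Npas2, which can replace Clock, read 105, 50.5 and 88.3, lower on both hypoxic arrays. Cry1, the later-peaking cryptochrome, read 467, 194 and 357, lower on both. The cell cycle kinase gene Wee1 read 678, 672 and 368, Usp2 534, 408 and 286 and the receptor gene Rora 1389.6, 1266 and 882. These 3 were lower on both hypoxic arrays and lowest on array 5. Nfil3, the repressor at D-boxes, lay at 224, 222 and 274 and the kinase gene Csnk1e at 1966, 2394 and 2773. Csnk1e was the 1 gene of the list that was higher on both.

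The other arrays give the range of these genes in the series. Dbp read 891 and 1794 on the hypoxic BL6 arrays, and 5089 to 7612 on the hypoxic FVB/N arrays and both remaining normoxic ones. Arntl read 834 and 738 on the hypoxic BL6 arrays and 84.1 to 197 on the 4 others. For both genes hypoxic SV129 array 5 was thus nearest to the hypoxic BL6 arrays, and array 2 lay within the range of the FVB/N and normoxic ones. This is a description of single arrays, with no test.

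**Figure D4:**
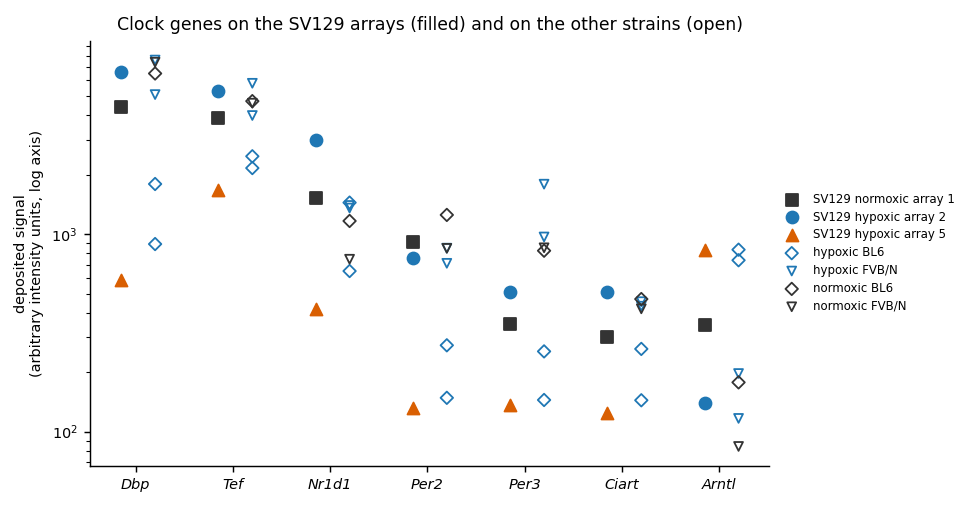
Deposited signal (vertical log axis, arbitrary intensity units) of 7 clock genes on the SV129 arrays (filled; square normoxic, circle hypoxic array 2, triangle hypoxic array 5) and on the 6 arrays of BL6 and FVB/N (open). For Dbp, Tef, Nr1d1, Per2, Per3 and Ciart the triangle is the lowest SV129 point, and for Arntl it is the highest.

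Heart muscle genes, which the sleeves of cardiac muscle around pulmonary veins supply, also parted the hypoxic arrays. Of 28 genes, 9 read above the normoxic array on array 2 and 21 on array 5, beside 50.3% and 48.9% of all genes. Myh6, the atrial myosin heavy chain, read 4054, 2405 and 6774 and Pln, the calcium pump regulator phospholamban, 219.9, 291 and 730.4. The summed signal of the list was 36776, 32456 and 45950.5. Away from clock and muscle, genes far higher on array 2 included Alox15, a lipoxygenase of macrophages and mesothelium, at 100.2, 1529 and 177; it was chosen after its values were seen. Genes far higher on array 5 included Inpp4b, a lipid phosphatase, at 314, 302 and 1574, and Myo1h, an unconventional myosin, at 134, 32.7 and 384. Zfp1 (222, 25.2 and 319), Spaar (137, 60.7 and 373), Adam28 (51.6, 9.204 and 99.2), Slc18a2 (29.9, 13.3 and 112) and the muscle gene Smyd1 (65.96, 9.13 and 88.8) completed the 10 genes with the largest difference in that direction, beside Adm, Arntl and S100a9.

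**Figure D5:**
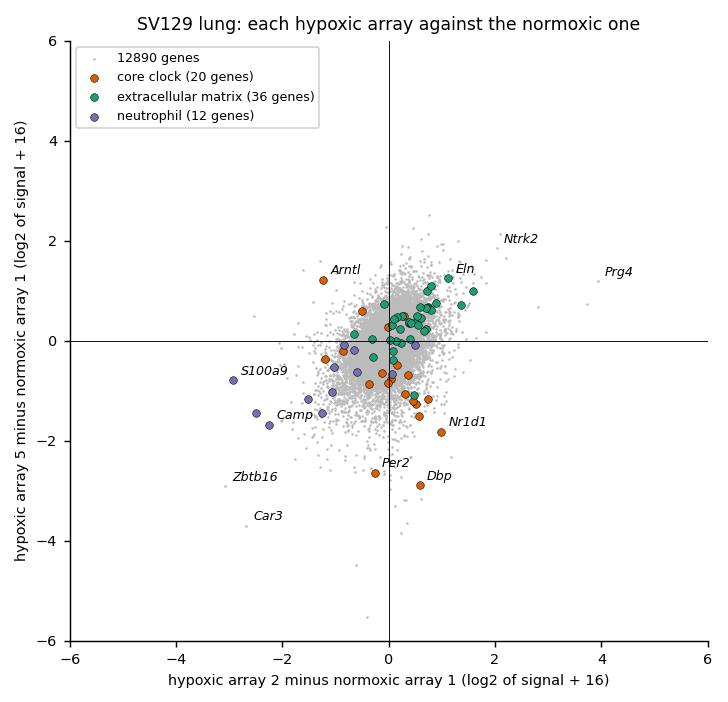
Difference of each hypoxic SV129 array from the normoxic one (array 2 horizontal, array 5 vertical, both in log2 of signal + 16) for 12890 genes in grey, with 3 gene lists in colour. Both axes share the normoxic array; matrix genes lie mostly at the upper right, neutrophil genes at the lower left, and clock genes along both sides of the vertical line toward low values on array 5.

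Whether SV129 differed from the other strains was tested with an interaction, the SV129 difference minus the mean of the BL6 and FVB/N differences. No probe set passed in limma (0 of 27022, with 759 at an unadjusted p under 0.05), and the smallest adjusted p was 0.9998. The genes with the smallest unadjusted p are given as values. ND5, a mitochondrially encoded subunit of complex I, was higher on both hypoxic SV129 arrays, at 13591, 26000.2 and 24712, with a mean difference of 0.90 that was 0.48 after quantile normalization. In BL6 its differences were 0.32 and 0.37 and in FVB/N −0.52 and −0.58, and the interaction was 1.00 ± 0.16 (standard error; limma adjusted p = 0.9998). Ltb, the cytokine lymphotoxin beta, was lower in SV129, at 1203, 710.2 and 701, and higher in BL6 by 0.32 and 0.45 and in FVB/N by 1.08 and 1.21. Nox4 was higher in SV129 by 0.36 and 0.55 and lower in BL6 (−0.23 and −0.54) and FVB/N (−1.28 and −1.37). Jakmip1 was lower in SV129, with differences of −0.60 and −0.57, and Mylpf, a myosin light chain of fast skeletal muscle, differed by 0.33 and 0.17 in SV129 and by −4.48 and −4.42 in FVB/N. The 10 listed skeletal muscle genes had a mean log2 level of 10.62 on the normoxic FVB/N array and of 6.78 to 7.32 on the other 8 arrays. The FVB/N values rest on a normoxic array with kidney transcripts, and hypoxic BL6 array 2 carries them as well. Zbtb16 had an interaction of −3.29 ± 0.97 (standard error; limma adjusted p = 0.9998), with differences of −2.22 and −0.45 in BL6 and 2.76 and 1.09 in FVB/N. For Eln, whose differences were 1.38 and 0.90 in BL6 and 0.99 and 1.32 in FVB/N, the interaction was 0.04 ± 0.32 (standard error; limma adjusted p = 0.9998).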

How the data were processed

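Whole right lung RNA was labelled with biotin and hybridised to Affymetrix arrays, according to the labels' protocols. The deposited table holds intensities, 1 per probe set and array, which the authors had scaled so that the mean of each array without its top and bottom 2% of probe sets was 500, as computed from the file. Which software made them is not stated in the labels. Probe sets took gene symbols from the platform annotation: 34945 had 1 symbol, 932 several and 9160 none, and the last 2 kinds stayed unnamed. log2(signal + 16) of 27022 probe sets was fitted with limma 3.58.1 (R 4.3.3; 6 groups, 9 arrays, eBayes with trend, Benjamini-Hochberg adjustment) and tested on simulated data. Genes were read through their brightest probe set. Named were the 15 highest and 15 lowest by the smaller of both differences (since none passed), the 10 leading each way over all probe sets of a gene and by array 5 minus array 2, the 5 smallest interaction p-values, and list members. Members and lists were chosen with earlier results of these data known. Alternatives covered scaling, pseudocount, filter, eBayes settings, array number as a block and left-out arrays.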

Additional observations from a re-analysis of the deposited data

Results flagged for a closer look

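For 9 of the 30 genes with the largest differences, both hypoxic SV129 arrays lay on one side of their normoxic array and both hypoxic arrays of another strain on the other side of theirs. The same share over all genes was not counted, so the count of 9 is no result about these genes. The interaction of these genes did not pass in limma (adjusted p = 0.9998 for each), and the difference from the single other strain was not tested. The normoxic FVB/N array and hypoxic BL6 array 2 carry kidney transcripts, whose part in these values was not tested. Zbtb16 had a mean difference of −3.00 in SV129, against 2.76 and 1.09 on the FVB/N arrays. Prg4 stood at 2.56 in SV129, against −0.60 and −1.81 on the BL6 arrays. Spata9 stood at 1.47, against −0.11 and −0.36 in BL6 and −0.18 and −1.25 in FVB/N. Slc26a4 stood at 1.66, against −2.71 and −1.98 in FVB/N, and 0610005C13Rik at 1.46, against −6.48 and −5.21. Apc2 stood at 1.73, against −0.18 and −0.46 in FVB/N, Uroc1 at 1.52, against −0.05 and −0.38, and Esrrb at 1.25, against −0.09 and −0.41. Camp stood at −1.97 in SV129, against 0.43 and 0.02 in BL6.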

How the results depend on the processing

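No probe set passed in limma for SV129 hypoxia under any alternative run, with smallest adjusted p-values from 0.0525 (without hypoxic SV129 array 2) to 0.651, nor for the interaction, with smallest adjusted p-values from 0.172 to 1.00. With the array number as a random replicate block the counts were 0 and 0. The numbers 2 and 5 are shared by BL6 and SV129, and the array 5 minus array 2 differences of both strains had a correlation of −0.04 across probe sets. The kidney transcripts of hypoxic BL6 array 2 enter that value. Whether equal numbers mark a shared preparation was not tested. The 420 probe sets at least 1 log2 unit apart on both arrays (132 higher, 288 lower) became 211 with a pseudocount of 64 (54 and 157), 1187 with no filter (419 and 768) and 222 with the dimmest 60% left out (61 and 161); with a pseudocount of 1 the higher count was 200. Leaving out 1 hypoxic SV129 array removes the demand that both lie apart: the count was then 1112 to 2633, with 414 to 960 higher and 698 to 1673 lower. The 2427 probe sets at least 1 unit apart between the hypoxic SV129 arrays became 1359 with a pseudocount of 64, 5943 with no filter, 1270 with the dimmest 60% left out and 824 with 1 probe set per gene, alternatives added after seeing the data; quantile normalization gave 2437. For named genes, the choice of genes by both differences fixed the direction in advance, so that it is no sign of stability. Of their other probe sets, 35 had the same sign, which for the genes chosen over all probe sets was part of the choice, and 6 had the opposite one: −0.34, −0.92 and −0.0057 for Nipbl, −0.33 for Mef2c, 0.11 for Ddr1 and 1.30 for Abtb2. Among list medians, also added after seeing the data, the clock list was 0.10 without array 5 (−0.81 without array 2), and the HIF list was −0.0034 after quantile normalization and −0.028 to 0.016 with 1 hypoxic array left out; the cause was not tested. With 1 normoxic array and 2 hypoxic arrays, the spread of the hypoxic pair does not measure the error of the normoxic array. It therefore sets no limit above which a difference could be told from noise. Dim probe sets carry the least signal over background.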
